A study of Homo sapiens with 2 samples.

Results

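The Williams syndrome region of chromosome 7 was examined for binding sites of WSTF (Williams syndrome transcription factor), the protein named after it. Its gene, BAZ1B, lies within the region. The members described here are the protein-coding genes of the RefSeq GRCh38 gene table whose start on chromosome 7 lies between positions 72500000 and 76000000. BAZ1B, BCL7B, FZD9, VPS37D, DNAJC30 and the 4 genes with symbols starting GTF2 were left out by the rule. This gave 42 members of 20033 protein-coding genes, and of 938 on chromosome 7. The first member by position was TYW1B (start 72574513) and the last STYXL1 (start 75996337). Their neighbours just outside the limits, CALN1 and MDH2, held no summit.

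WSTF was located by ChIP-seq, the sequencing of DNA that an antibody against the protein brings down with it. The cells were SW620, an established human colorectal cancer line that was derived from a lymph node metastasis. The series has 2 libraries of genomic DNA from this line, 1 titled SW620-IP and 1 titled SW620, with no treatment, time or genotype in their labels. The series title speaks of knockdown and its design text of overexpression of WSTF, so the level of WSTF in these cells is not known here. A single deposited list of 2697 peak summits was analysed, with no replicate list. It holds no expression values, so the identity of the line was not checked.

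A summit is the base at which a called peak of reads is highest. Each carries a score, taken to be the −log10 q-value of its peak, with a list median of 3.72 and quartiles of 2.76 and 5.04. Scores are the authors' and were used only within the list. Since the depth of sequencing is not known, the lack of a summit does not show the lack of WSTF.

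Williams syndrome is caused by loss of a stretch of this region from a single chromosome copy. The stretch lies between blocks of near-identical sequence, called low-copy repeats, that misalign at meiosis. The blocks hold copies and pseudogenes of the same few families, among them SPDYE, POM121, the TRIM50-like genes, NSUN5, NCF1, PMS2 and STAG3. The lost stretch holds genes of unrelated function, of which ELN, the elastin gene, is the best known for its part in the arterial narrowing of the syndrome. WSTF itself is a bromodomain and PHD finger protein. It works with the ISWI remodelling ATPase SMARCA5 in the WICH complex, which is known for its roles at replication sites and in DNA damage signalling.

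For description the members were divided by start position. The single-copy part ran from FKBP6 to CLIP2 and held 16 members. The proximal duplicated blocks, before FKBP6, held 9 members, and the distal duplicated blocks, after CLIP2 up to POM121C, held 9. A further 8 members lay beyond POM121C. These are mostly unique genes, but SPDYE5, the first of them, belongs to a duplicated family. NSUN5 and TRIM50 start before FKBP6 and so count with the proximal blocks, although they are the parent genes of copies elsewhere in the blocks.

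The promoter sequences are shown first, since the results below refer to their CpG content, their motifs and the bases they share with copies. All are RefSeq GRCh38.p14 promoters of 300 bases, from 250 before to 50 after the start of transcription, printed in the direction of the gene. The first 3 belong to members with a summit. EIF4H is shown as a single-copy member with a CpG-rich promoter and no summit. In these 4, capitals mark GGGCGG or its reverse complement, the core of the GC box read by SP and KLF factors. They lie at chr7:73719620-73719919 (STX1A, minus strand), chr7:73738753-73739052 (ABHD11, minus strand), chr7:75073753-75074052 (RCC1L, minus strand) and chr7:74174106-74174405 (EIF4H, plus strand).
STX1A: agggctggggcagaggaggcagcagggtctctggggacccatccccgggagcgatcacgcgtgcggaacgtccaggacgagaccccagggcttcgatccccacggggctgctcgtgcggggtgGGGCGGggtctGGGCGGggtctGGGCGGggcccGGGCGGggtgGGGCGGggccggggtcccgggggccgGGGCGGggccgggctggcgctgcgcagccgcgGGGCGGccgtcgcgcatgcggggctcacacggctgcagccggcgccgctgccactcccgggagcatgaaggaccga
ABHD11: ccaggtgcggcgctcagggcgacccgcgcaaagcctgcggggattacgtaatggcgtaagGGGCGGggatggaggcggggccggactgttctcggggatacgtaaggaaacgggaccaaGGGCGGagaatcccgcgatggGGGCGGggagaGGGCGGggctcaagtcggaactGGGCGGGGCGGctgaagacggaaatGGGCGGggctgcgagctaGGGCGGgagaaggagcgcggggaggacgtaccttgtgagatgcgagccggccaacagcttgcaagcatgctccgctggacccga
RCC1L: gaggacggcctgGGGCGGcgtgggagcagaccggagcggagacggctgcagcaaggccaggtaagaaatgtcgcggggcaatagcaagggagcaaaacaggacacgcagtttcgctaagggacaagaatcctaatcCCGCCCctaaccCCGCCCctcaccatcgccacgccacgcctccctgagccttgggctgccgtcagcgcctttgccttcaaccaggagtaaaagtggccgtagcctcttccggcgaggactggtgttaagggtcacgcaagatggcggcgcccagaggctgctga
EIF4H: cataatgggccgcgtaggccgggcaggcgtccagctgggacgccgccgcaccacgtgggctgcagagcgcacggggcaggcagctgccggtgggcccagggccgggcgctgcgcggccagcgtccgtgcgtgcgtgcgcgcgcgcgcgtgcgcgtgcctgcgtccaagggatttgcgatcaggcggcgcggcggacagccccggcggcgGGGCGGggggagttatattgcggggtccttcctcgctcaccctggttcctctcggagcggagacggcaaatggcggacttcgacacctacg

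The next 4 promoters come from the duplicated blocks, and capitals mark the base that differs within each pair. TRIM73 (chr7:75395379-75395678, plus strand) lies in the distal blocks and TRIM74 (chr7:72969417-72969716, minus strand) in the proximal blocks. Their promoters were identical at 299 of 300 bases. SPDYE8 (chr7:73029717-73030016, minus strand) and SPDYE9 (chr7:73085989-73086288, minus strand) also differed at 1 base. The SPDYE8 sequence was repeated without a difference at SPDYE11 in the proximal and SPDYE14 in the distal blocks. A read that falls within such a stretch without covering a differing base cannot be placed at a single copy.
TRIM73: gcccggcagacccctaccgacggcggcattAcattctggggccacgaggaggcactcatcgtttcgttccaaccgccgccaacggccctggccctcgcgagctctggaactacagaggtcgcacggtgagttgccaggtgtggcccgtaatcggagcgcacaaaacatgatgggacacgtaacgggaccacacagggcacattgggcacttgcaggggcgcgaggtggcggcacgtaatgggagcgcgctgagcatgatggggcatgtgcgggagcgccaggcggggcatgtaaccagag
TRIM74: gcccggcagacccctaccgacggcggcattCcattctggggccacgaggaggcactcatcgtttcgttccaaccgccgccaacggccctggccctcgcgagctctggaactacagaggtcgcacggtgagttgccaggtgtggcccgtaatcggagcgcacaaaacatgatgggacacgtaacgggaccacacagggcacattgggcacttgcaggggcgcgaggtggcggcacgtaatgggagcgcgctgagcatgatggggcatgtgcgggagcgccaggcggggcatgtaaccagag
SPDYE8: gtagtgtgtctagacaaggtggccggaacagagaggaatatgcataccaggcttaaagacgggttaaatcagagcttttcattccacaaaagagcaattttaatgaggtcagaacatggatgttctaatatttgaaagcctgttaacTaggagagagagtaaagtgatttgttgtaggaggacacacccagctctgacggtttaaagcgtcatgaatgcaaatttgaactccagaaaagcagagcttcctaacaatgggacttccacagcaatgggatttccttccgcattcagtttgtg
SPDYE9: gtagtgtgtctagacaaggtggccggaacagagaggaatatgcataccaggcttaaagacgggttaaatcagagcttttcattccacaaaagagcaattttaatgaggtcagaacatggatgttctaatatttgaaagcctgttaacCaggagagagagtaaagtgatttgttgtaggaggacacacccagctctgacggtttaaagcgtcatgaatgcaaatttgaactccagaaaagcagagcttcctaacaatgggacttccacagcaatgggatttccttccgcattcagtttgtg

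Summits were found at 4 members: STX1A and ABHD11 in the single-copy part, RCC1L in the distal duplicated blocks, and RHBDD2 beyond POM121C. The other 38 members had none, either inside or within 1 kb. The share was 9.52% (4 of 42, exact 95% interval 2.66 to 22.6). Over all protein-coding genes the same rule gave 13.8% (2765 of 20033) and on chromosome 7 it gave 14.6% (137 of 938). Both lie within the interval of the members, so the region did not stand apart from its background at this number of genes. Each of the 4 members had a summit of its own, and each summit lay within 1 kb of a gene end. The intervals cover counting error only and take neighbouring genes as independent. No test between samples was possible with a single list.

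**Figure D1:**
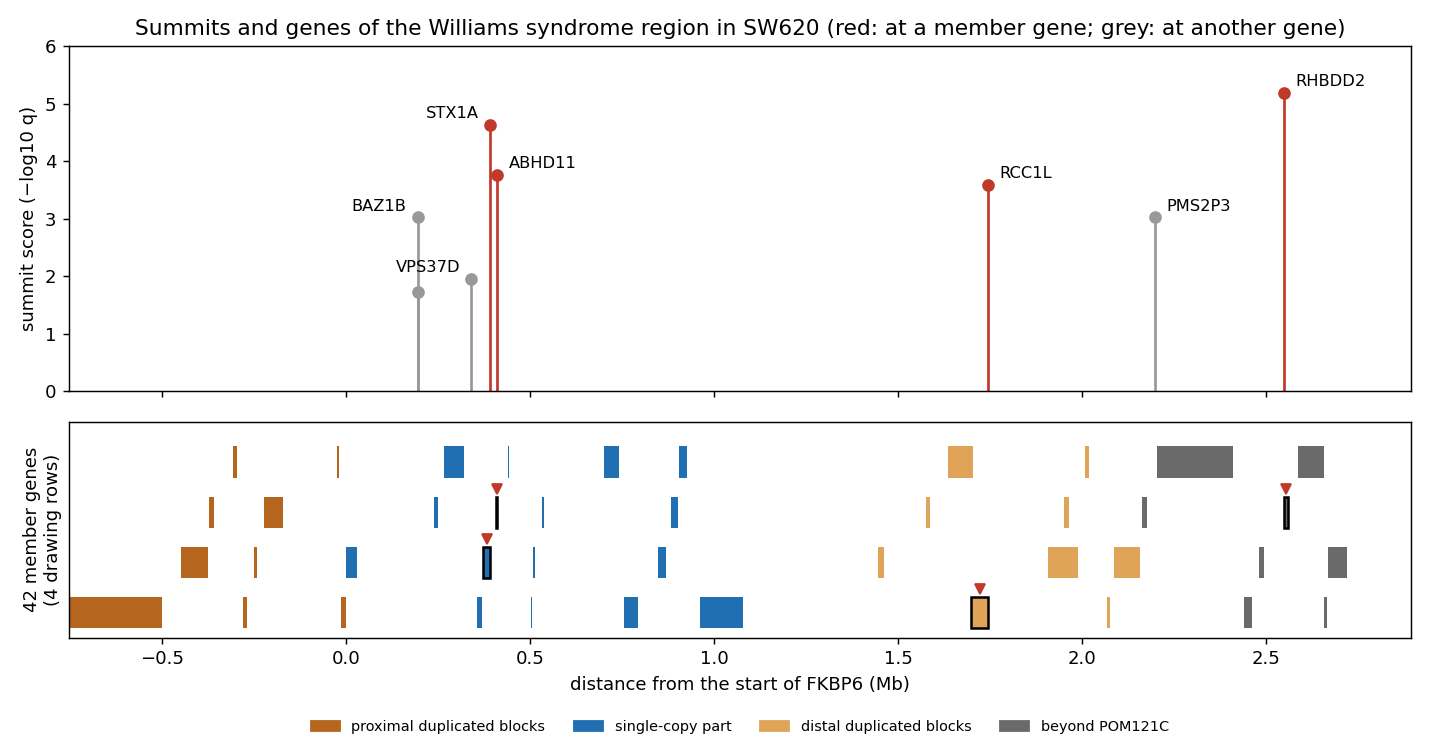
Summits of the region by score (upper panel, −log10 q) and the 42 member genes (lower panel, bars to scale, placed in 4 rows to avoid overlap) against distance from the start of FKBP6 in Mb. Summits at members (red) score from 3.59 at RCC1L to 5.18 at RHBDD2, and a stretch of 1.33 Mb to the right of ABHD11 holds none.

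RHBDD2 carried the highest-scoring summit of the region. The gene encodes a rhomboid-domain membrane protein. Its summit lay at position 75879081 with a score of 5.18, and 2079 of the 2697 summits (77.1%) scored lower. It was 47 bp inside the lower-coordinate end of the gene (75879034 to 75888926). The gene's relatives RHBDD1 on chromosome 2 and RHBDD3 on chromosome 22 were also in the list. All 3 genes of this symbol family thus held a summit, against 13.8% of all protein-coding genes. RHBDD1 had summits with scores of 6.63 and 5.82, which lay 36039 and 1034 bp from the nearer gene end. RHBDD3 had a summit with a score of 3.43 at 137 bp from an end. This family was looked up after the summit at RHBDD2 had been seen, and 3 genes are too few to read a pattern from.

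STX1A encodes syntaxin-1A, a plasma membrane SNARE protein of synaptic vesicle and hormone granule release. Its summit at position 73719460 had a score of 4.63, above that of 1861 summits (69% of the list), and was the highest-scoring in the single-copy part. It lay 209 bp downstream of the annotated start of transcription, inside the gene (73699210 to 73719669). Syntaxin genes, looked up after the summit at STX1A had been seen, held summits at 5 of 16 members, against 13.8% of all protein-coding genes. They were STX7 (score 5.81), STX1A, STX4 (4.30), STX18 (2.26) and STX17 (1.67), so that STX1A had the second-highest score among them.

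ABHD11, a mitochondrial hydrolase gene of the alpha/beta hydrolase family, had its summit at position 73739204 with a score of 3.76. This is close to the middle of the list, with 1399 summits (51.9%) scoring lower. The summit lay outside the gene (73736094 to 73738802), 402 bp upstream of the start of transcription. It was the only member summit on the upstream side among the 3 members whose start is in the promoter table. Of 21 genes with ABHD symbols, also looked up afterwards, 6 held a summit, against the same 13.8% of all protein-coding genes. Families of other members had summits at 4 of 24 METTL genes, 1 of 4 CLIP genes and 0 of 5 TBL genes. MLXIPL and its relatives had 1 of 3. Of 31 EIF4 entries 15 are protein-coding. The 5 with a summit were EIF4G2, EIF4A1, EIF4G1, EIF4A2 and EIF4EBP1, all protein-coding genes. The count to set beside the 13.8% of protein-coding genes is therefore 5 of 15. No family was tested against the background.

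RCC1L, a mitochondrial protein gene with RCC1-like repeats and a role in mitochondrial ribosome assembly, was the only member of the duplicated blocks with a summit. The summit at position 75073613 had a score of 3.59, below the list median, and 1219 summits (45.2%) scored lower. It lay 189 bp downstream of the start of transcription, inside the gene (75027119 to 75073802). Although RCC1L lies between duplicated families, none of the 50-base words of its promoter occurred in another promoter of the table.

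The positions of these summits relative to the start of transcription were set beside those of the whole list. Of 2619 summits on chromosomes covered by the promoter table, 1842 (70.3%) lay within 1 kb of the start of a protein-coding gene. Their median offset was 15 bp upstream, with quartiles from 150 bp upstream to 124 bp downstream. The summits at STX1A, ABHD11 and RCC1L all lay outside these quartiles. Offsets larger than the 189 bp of RCC1L were found for 36.4% of the 1842 summits, and larger than the 402 bp of ABHD11 for 11.1%. None of the 3 summits fell inside the 300-base promoter windows printed above.

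The remaining 4 of the region's 8 summits were not at members. Of the 9 genes left out by the rule, 2 had summits: BAZ1B at positions 73521830 and 73522265 with scores of 3.02 and 1.73, and VPS37D at 73667809 with a score of 1.95. All 3 scored below each of the 4 member summits. The last lay at position 75528205 with a score of 3.02, 82 bp outside PMS2P3 (75507747 to 75528123), a transcribed pseudogene of the mismatch repair gene PMS2 that lies beyond POM121C. It was 5093 bp from HIP1, the nearest protein-coding gene.

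The single-copy part held its summits in a narrow stretch. BAZ1B, VPS37D, STX1A and ABHD11 accounted for 5 summits between positions 73521830 and 73739204. Around them the other members were near but without a summit of their own. TBL2, a gene for a WD-repeat protein of the endoplasmic reticulum, lay 45272 bp from the nearest summit. MLXIPL, which encodes the glucose-responsive transcription factor ChREBP, lay 19902 bp away, and BUD23, the methyltransferase gene of small-subunit ribosomal RNA, 15788 bp away. The tight junction gene CLDN3 lay 29793 bp from the summit at ABHD11. CLDN4, the neighbouring claudin gene, lay 91792 bp away, METTL27, a methyltransferase-like gene, 95386 bp and TMEM270, a transmembrane protein gene, 121644 bp. FKBP6, an FK506-binding protein gene needed in male germ cells, lay on the other side, 163205 bp before the first summit at BAZ1B.

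No summit was found between positions 73739204 and 75073613, a gap of 1.33 Mb. It holds 16 protein-coding genes, 13 of them members. Those of the single-copy part beyond TMEM270 have unrelated roles. ELN encodes elastin and lay 288969 bp from the nearest summit. LIMK1, the kinase gene that controls actin filaments through cofilin, lay 344600 bp away. EIF4H, a cofactor gene of the translation initiation helicase, lay 435152 bp away, and LAT2, a signalling adaptor gene of B cells and mast cells, 470802 bp. RFC2, a subunit gene of the clamp loader that places PCNA on DNA, lay 492298 bp away, and CLIP2, a gene for a microtubule-binding linker protein, 550203 bp. Of the 5 genes RFC1 to RFC5, RFC1 and RFC4 had summits, with scores of 2.72 and 1.95. Of the LIM kinase genes LIMK1 and LIMK2, neither had one, and none of 24 claudin genes did. The share over all protein-coding genes was 13.8%, and these families were not tested against it.

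The gap was above the median of the chromosome in length and in gene number, but larger gaps occurred. Of the 154 gaps between neighbouring summits on chromosome 7, it ranked 28th by length and 14th by the number of protein-coding genes inside. The median gap was 251 kb and held 2 genes. The 10 members from TYW1B to FKBP6 lay in another gap of 6.22 Mb, from 67302963 to 73521830, the 5th longest on the chromosome, which ranked 18th by number of genes with 14.

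**Figure D2:**
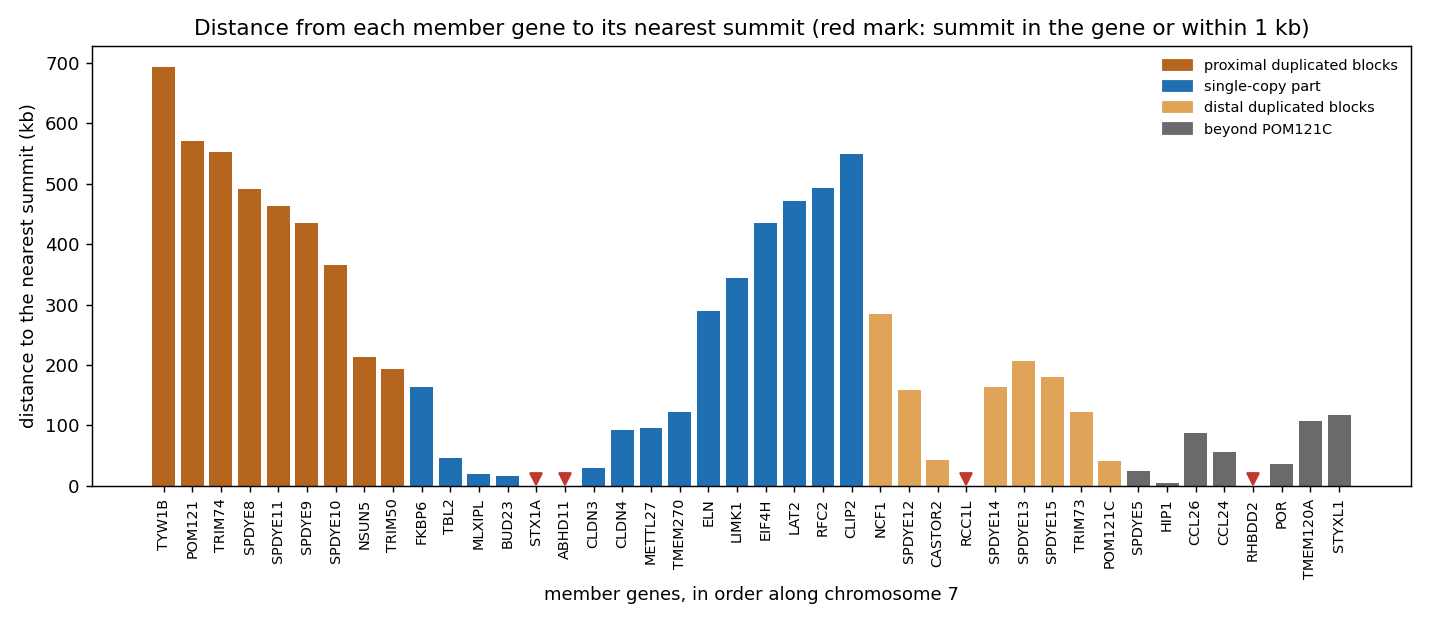
Distance in kb from each of the 42 members to the nearest summit, in order along the chromosome, with bars coloured by part of the region. Distances fall from 693630 bp at TYW1B to 0 at STX1A, rise again to 550203 bp at CLIP2, and stay at or below 117256 bp beyond POM121C.

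The proximal duplicated blocks held no summit at any of their 9 members (exact 95% interval up to 33.6%). These were TYW1B, a copy of the tRNA wybutosine synthesis gene TYW1, POM121, a nuclear pore membrane protein gene, TRIM74, the cell cycle regulator-like genes SPDYE8, SPDYE11, SPDYE9 and SPDYE10, the ribosomal RNA methyltransferase gene NSUN5, and TRIM50, a ubiquitin ligase gene. Their distances to the nearest summit ran from 193748 bp at TRIM50 to 693630 bp at TYW1B. In the distal blocks RCC1L was the exception among 9 members (11.1%, 0.281 to 48.2). The others were NCF1, which encodes the p47phox subunit of the phagocyte NADPH oxidase, SPDYE12, the arginine sensor-like gene CASTOR2, SPDYE14, SPDYE13, SPDYE15, TRIM73 and POM121C. Both sets of blocks together gave 1 of 18 (5.56%, 0.141 to 27.3), against 2 of 16 in the single-copy part (12.5%, 1.55 to 38.3). These intervals overlap over most of their length and both contain the 13.8% of all protein-coding genes, so a difference between single-copy and duplicated members was not detectable. With gene bodies alone the counts were 1 of 16 and 1 of 18. Among summits at or above the list median score they were 2 of 16 and 0 of 18. The share over all protein-coding genes was not counted for gene bodies alone or by score. With the left-out genes included they were 4 of 21 (19%) in the single-copy part and 1 of 22 (4.55%) in the blocks. Here the 4 GTF2 genes were counted with the blocks by start position alone. Whether they are duplicated was not examined, and no intervals were computed, so these 2 shares do not compare single-copy with duplicated genes.

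Beyond POM121C, RHBDD2 was the only one of 8 members with a summit (12.5%, 0.316 to 52.7). HIP1, a clathrin adaptor gene, came closest among the rest at 5093 bp, at the end opposite to its annotated starts. SPDYE5 lay 23889 bp away, POR, the electron donor gene of microsomal cytochromes P450, 36074 bp, and the eosinophil chemokine genes CCL24 and CCL26 lay 55709 and 87484 bp away. TMEM120A, a nuclear envelope transmembrane protein gene, lay 107750 bp away and STYXL1, a pseudophosphatase gene, 117256 bp.

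**Figure D3:**
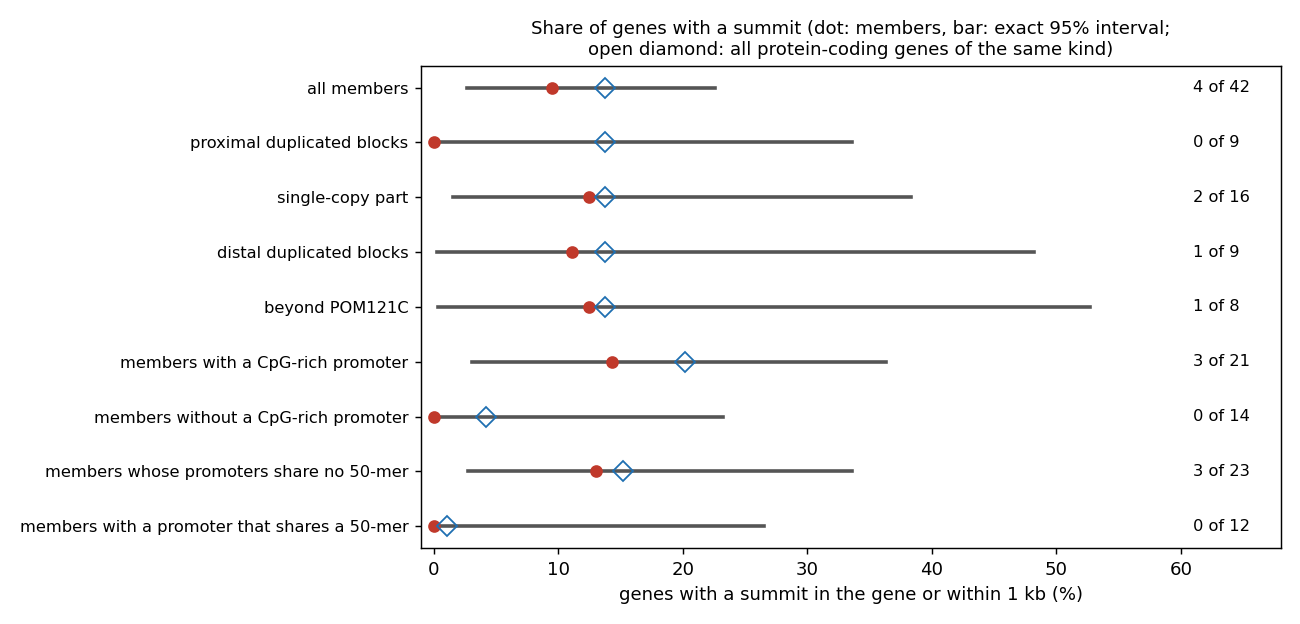
Percentage of genes that hold a summit, 1 kb on either side included, for the members (dots, with exact 95% intervals as bars) and for all protein-coding genes of the same kind (open diamonds). Every diamond lies within the interval of the matching members, and 3 of the 9 sets of members have none with a summit.

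The families that make up the blocks were followed across the genome to see whether their other copies were in the list. Of 23 SPDYE entries in the gene table, pseudogenes included, none held a summit, and neither did any of 16 POM121 entries, 3 NSUN5 entries, 3 NCF1 entries, 3 TYW1 entries, or TRIM50, TRIM73 and TRIM74. Summits were found in the PMS2 and STAG3 families. Of 6 entries with symbols starting STAG3L, 3 had a summit, namely STAG3L4, STAG3L5P and a readthrough entry that contains STAG3L5P. Of 14 PMS2 pseudogenes, 3 had a summit, all on chromosome 7. They were PMS2P4 (score 4.26), PMS2P3 (3.02) and PMS2P1 (1.73), each with the summit outside an end, by between 56 and 521 bp. The summit by PMS2P4, at 67302963, is the one that closes the 6.22 Mb gap on its far side, and it lies inside the transcribed pseudogene STAG3L4, 325 bp from its end. Entries that overlap or adjoin can share a summit, so these family counts are not independent. The share over all pseudogenes was not counted, so they cannot be called high or low. The sequence around these summits was not compared between copies, so their assignment to a copy was not tested. CASTOR1 on chromosome 22, the functional relative of CASTOR2, had a summit with a score of 5.06.

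How far the members' promoters are repeated was measured within the promoter table. For each promoter, the share of its 50-base words that also occur in the promoter of another gene was taken. Both strands were searched, and overlapping promoters were not counted. Of the 42 members, 35 have promoters in the table, 42 promoters in all. SPDYE10, ELN, LAT2, CASTOR2, SPDYE15, RHBDD2 and POR have no entry. In the single-copy part none of 14 genes shared a word. In the duplicated blocks 11 of 15 genes did, and beyond POM121C 1 of 6 did, SPDYE5. All the words of SPDYE8, SPDYE11 and SPDYE14 were shared, 87.6% of those of TRIM73 and of its match at TRIM74, 80.1% at SPDYE9 and 69.7% at SPDYE12. POM121 (34.7%), TYW1B (11.2%), TRIM50 (6.77%) and POM121C (2.79%) shared fewer. In the blocks NSUN5, NCF1, RCC1L and SPDYE13 shared none, within the promoters of the table. NSUN5 and NCF1 each have 3 entries in the gene table, of which 1 is protein-coding. No pseudogene was among the matching promoters found for any member, so copies at pseudogenes may have been missed. A gene without a shared word is therefore not shown to be free of copies.

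None of the 12 members with a shared word had a summit (exact 95% interval up to 26.5%), and 3 of the 23 without one did (13%, 2.78 to 33.6). Over all protein-coding genes with a promoter in the table, 7 of 667 genes with a shared word had a summit (1.05%), against 15.2% of the 15175 without. Both shares lie within the intervals of the matching members, which are themselves counted among these genes. With 12 and 23 members the intervals are too wide to tell the members from the other genes. How the aligner treated reads with several equal matches is not stated in the notes and labels, and the part of read placement in the missing summits was not tested.

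The CpG content of the promoters was measured as well, since such promoters are typical of widely expressed genes. A promoter was called CpG-rich with a GC content of at least 55% and a ratio of observed to expected CpG of at least 0.6. Among all protein-coding genes with a promoter in the table, 20.2% of 10326 genes with a CpG-rich promoter had a summit, against 4.19% of 5516 without. Of the members, 21 had a CpG-rich promoter and 3 of these had a summit (14.3%, 3.05 to 36.3), namely STX1A, ABHD11 and RCC1L. None of the 14 members without a CpG-rich promoter did (interval up to 23.2%). Within CpG-rich genes, a shared word went with fewer summits (2.53% of 198 genes, against 20.5% of 10128). The same held among the others (0.426% of 469, against 4.54% of 5047). The part of CpG content, or of other traits of these genes, in the lower share at repeated promoters was not tested.

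Among the CpG-rich members, the promoters of genes with a summit were not set apart by CpG content. The single-copy part had 11 genes with a CpG-rich promoter, of which STX1A and ABHD11 alone had a summit. STX1A (CpG ratio 0.823, GC 79.3%), ABHD11 (1.05, 68.3%) and RCC1L (0.765, 63.3%) lay in the range of promoters without a summit, such as those of FKBP6 (1.19, 64.3%), EIF4H (1.11, 74%), RFC2 (1.01, 72%) and CLIP2 (0.781, 75.3%). LIMK1 reached 0.927 with a GC content of 79.7% at its upstream promoter and had no summit either. CLDN4 (0.192) was the lowest of the single-copy part, while its neighbour CLDN3 was CpG-rich (0.62).

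**Figure D4:**
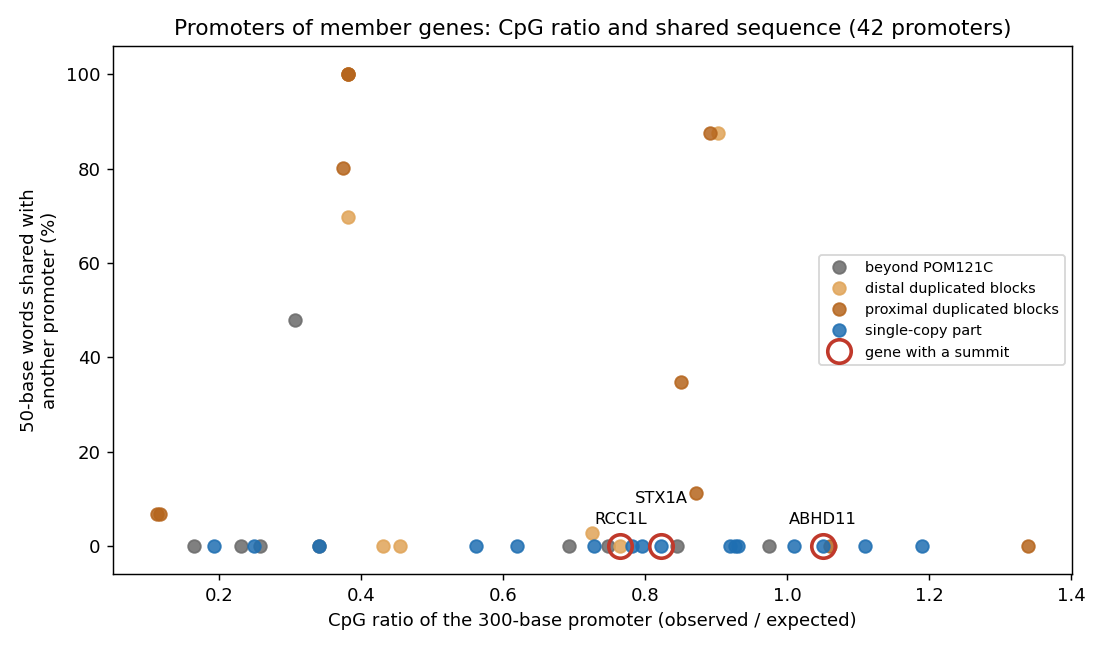
CpG ratio (observed over expected) of the 42 promoters of 35 members against the percentage of their 50-base words shared with another promoter, coloured by part of the region and ringed where the gene has a summit. The 3 ringed promoters share no word and have ratios from 0.765 to 1.05, in the midst of others without a summit.

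Promoter motifs were counted on both strands. GGGCGG was present in the promoters of STX1A (7 matches), ABHD11 (8, of which a pair overlaps) and RCC1L (3), and in 18 of 39 promoters of members without a summit. It was found in 56.3% of all promoters of protein-coding genes and in 45% of all promoters of the table. In the single-copy part it was found in 13 of 16 promoters, so that FKBP6, TMEM270 and the downstream promoter of LIMK1 were those without it. The shares that follow are over all promoters of protein-coding genes. CCAAT, read by NF-Y, was absent from the 3 promoters of genes with a summit and present in 12 of 39 others, against 34.7%. With only 3 promoters, this absence cannot set them apart. CCGGAAG, an ETS motif, was found at RCC1L and in 6 of 39 promoters without a summit, against 12.8%. CACGTG, the E-box, was found at EIF4H alone, against 8.34%. TATAAA, the core of the TATA box, occurred in no member promoter, against 9.47%. A match describes the letters of the window and is not a binding site, and summits lay outside these windows.

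Finally, the region was set beside the rest of chromosome 7, cut into stretches of the same 3.5 Mb with the left-out genes counted again. The region then held 51 protein-coding genes, of which 6 had a summit (11.8%, 4.44 to 23.9). Among 16 stretches with at least 20 genes, 5 had a lower and 10 a higher share. They ranged from 3.7% to 38.1% around a median of 14.7%. The next stretch beyond the region had 3 genes with a summit of 20 (15%). In other gene classes of the region, a summit lay at 1 of 38 pseudogenes, PMS2P3. None lay at the 13 lncRNA genes, 5 miRNA genes or 1 snoRNA gene. The shares of these classes over the genome were not counted, so these counts do not mark out the region.

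**Figure D5:**
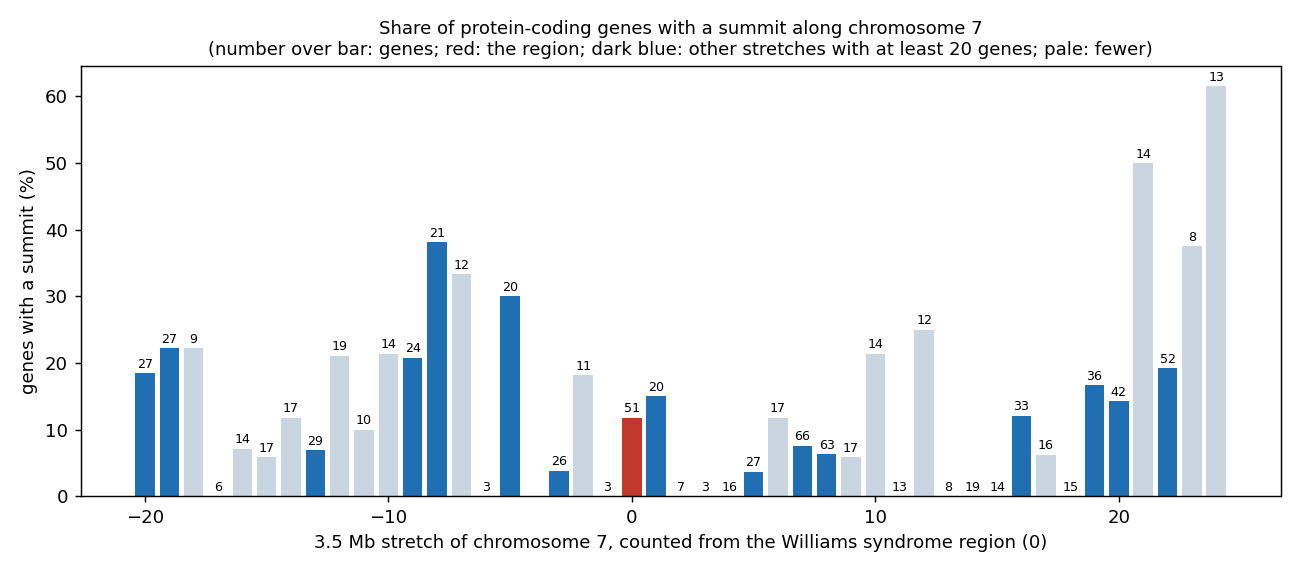
Percentage of coding genes that hold a summit in stretches of 3.5 Mb along chromosome 7, numbered from the Williams syndrome region at 0, with the number of genes over each bar. The region (red, 51 genes, 11.8%) lies between the lowest (3.7%) and highest (38.1%) of the stretches with at least 20 genes (dark blue).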

How the data were processed

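The submitters' processing notes name Trimmomatic (0.39), then Bowtie2 (2.4.4), MACS2 (version 2.2.7.1) and the build hg38. Per the design text, peaks were called against input DNA. No statement on pooled replicates was found in the labels. The deposited list gives a summit base and a score, read as −log10 of the q-value because the values start just above that of 0.05. BED starts were turned into 1-based positions. Genes on chromosomes 1 to 22, X and Y came from RefSeq GRCh38.p14, which shares hg38 coordinates. A gene counted when a summit lay in it or within 1 kb. Python 3.11.15 with scipy 1.17.1 gave exact Clopper-Pearson 95% intervals. Summit assignment was tested on simulated positions. The members, lists and limits of the parts were chosen with earlier results of these data known. Every member with a summit was named with its values, and the others with their distance. Symbol families and the 50-base word and CpG comparisons were chosen after the data had been seen. Alternatives covered the window, gene ends, score and limits of the parts. The library labels do not separate the samples in the list.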

Additional observations from a re-analysis of the deposited data

How the results depend on the processing

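Of 36 alternative counts, 31 stayed within 1.5 times the reported count. With gene bodies alone, 3 members had a summit and the single-copy part went from 2 to 1, since the summit at ABHD11 lies outside the gene. Among summits at or above the list median score, the duplicated blocks went from 1 to 0 of 18, since RCC1L scores below it. When all members outside FKBP6 to CLIP2 were counted with the blocks, 2 of 26 had a summit. With the left-out genes included, a setting chosen after seeing the data, the single-copy part had 4 of 21 and the region 7 distinct summits at genes in place of 4. A window of 10 kb added HIP1, for 5 of 42 members. The share over all protein-coding genes was counted for the 1 kb rule alone. Counts under other windows or scores therefore cannot be set beside it. No symbol starts with LOC, so leaving such symbols out changed nothing. No paired analysis was possible because there is 1 list of summits. Depth is unknown, and with counts of 0 to 4 the intervals are wide.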
